A study of Drosophila melanogaster with 6 samples.

Results

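Glutathione S-transferases (GSTs) were followed in whole Drosophila melanogaster embryos that carry mutant alleles of ribbon (rib). The rib product is a BTB protein of the nucleus that helps epithelial tubes such as the salivary glands and trachea to elongate. The genes were taken by symbol, as every probe set whose platform annotation gave a single symbol of the delta (D), epsilon (E), omega (O), sigma (S), theta (T) or zeta (Z) class. This gave 36 probe sets for 34 genes, out of 11982 genes with a single symbol and 18769 probe sets tested, and the brightest probe set over the 6 arrays stood for each gene. The 34 genes were 11 delta, 13 epsilon, 3 omega, 1 sigma, 4 theta and 2 zeta genes. GstE8 had no single-symbol probe set and was not analysed here.

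The mutant group was 3 collections of rib1/ribP7 embryos, which carry the alleles rib1 and ribP7 over each other, and the control group was 3 collections of wild-type embryos, Oregon R per the design text. Both groups were pools of embryos of stages 11 to 16, collected over 8 h, aged for 11 h and isolated with an embryo sorter. The sources used here do not give what each allele does to the gene or what marker told mutant from other embryos. The groups also differ in strain, so effects of strain background and of rib cannot be told apart. Total RNA was measured on Affymetrix Drosophila Genome 2.0 arrays, and all values are log2 RMA expression, so a difference of 1 is a doubling of signal. Each array averages all tissues of many embryos, so fewer cells of a type and less RNA per cell cannot be told apart. The mix of embryo ages in each pool is not in the labels, so it cannot be told apart from an effect of rib.

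Glutathione S-transferases join the tripeptide glutathione to reactive or foreign compounds, which makes them more soluble and easier to export. The delta and epsilon classes are specific to insects and arthropods close to them, have expanded by local gene duplication, and are best known for resistance to insecticides and for clearing products of lipid oxidation. The omega, sigma, theta and zeta classes are shared with other animals, and some of their members have set metabolic steps, such as eye pigment synthesis (omega) and tyrosine breakdown (zeta).

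Wild-type arrays differed more among themselves than mutant arrays did. The SD of the difference between a pair of arrays, over all probe sets, was 0.209 to 0.222 within the mutants and 0.402 to 0.629 within wild type. Of the 34 GST genes, 28 had the larger SD in wild type, against 80.8% of all probe sets. Array medians lay between 5.51 and 5.56, and the hybridization controls averaged 10.13 to 10.28 on the mutant arrays and 10.38 to 10.78 on the wild-type arrays, without overlap. The rib probe set itself read 13.87, 13.93 and 13.78 in the mutants, against 13.21, 13.28 and 12.69 in wild type. It was thus higher in the mutants (limma adjusted p = 0.039, up to 0.155 with 1 array left out) and does not check the genotypes.

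The called GST genes were mostly delta genes that rose and epsilon genes that fell in rib mutants. Of the 34 genes, 7 rose and 4 fell at a limma adjusted p under 0.05, which is 32.4% of the family, against 8.87% of all probe sets. By direction, 5.54% of all probe sets rose and 3.32% fell. Of the 11 delta genes 5 rose and 1 fell, of the 13 epsilon genes 3 fell and none rose, and the sigma gene and an omega gene made up the remaining rises. None of the 4 theta genes passed limma's adjusted test, and 3 had p under 0.05 before adjustment. By sign alone, called or not, 7 of 11 delta differences were above zero, while 11 of 13 epsilon and all 4 theta differences were below zero, as were 12025 of all 18769 probe sets. The median difference was 0.75 over the delta class, −0.57 over the epsilon class and −1.10 over the theta class, beside −0.07 over all probe sets. When arrays were scaled on their hybridization controls, the median of all probe sets moved to 0.31. By the same test 10 GST genes then rose and 3 fell, beside 2917 and 285 of all 18769 probe sets. The class medians under that scaling were 1.13 (delta), −0.19 (epsilon) and −0.72 (theta). Of the scaled differences, 1 of 11 delta, 8 of 13 epsilon and all 4 theta were below zero. The share of all probe sets below zero was not counted for that scaling. The groups did not overlap for 10 GST genes with higher and 14 with lower mutant values, while among all probe sets 14.2% and 21.1% were split in these directions, 35.3% in all. The other 10 GST genes had overlapping groups. Leaving out mutant replicate 1, 2 or 3 gave 6, 4 or 5 GST calls, beside 621, 603 or 607 over all 18769 probe sets. Without wild-type replicate 2 there were 7, beside 891, and without wild-type replicate 1 there were 18, beside 3674. At an unadjusted limma p under 0.05 there were 21 GST genes, against 25.5% of all probe sets.

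**Figure D1:**
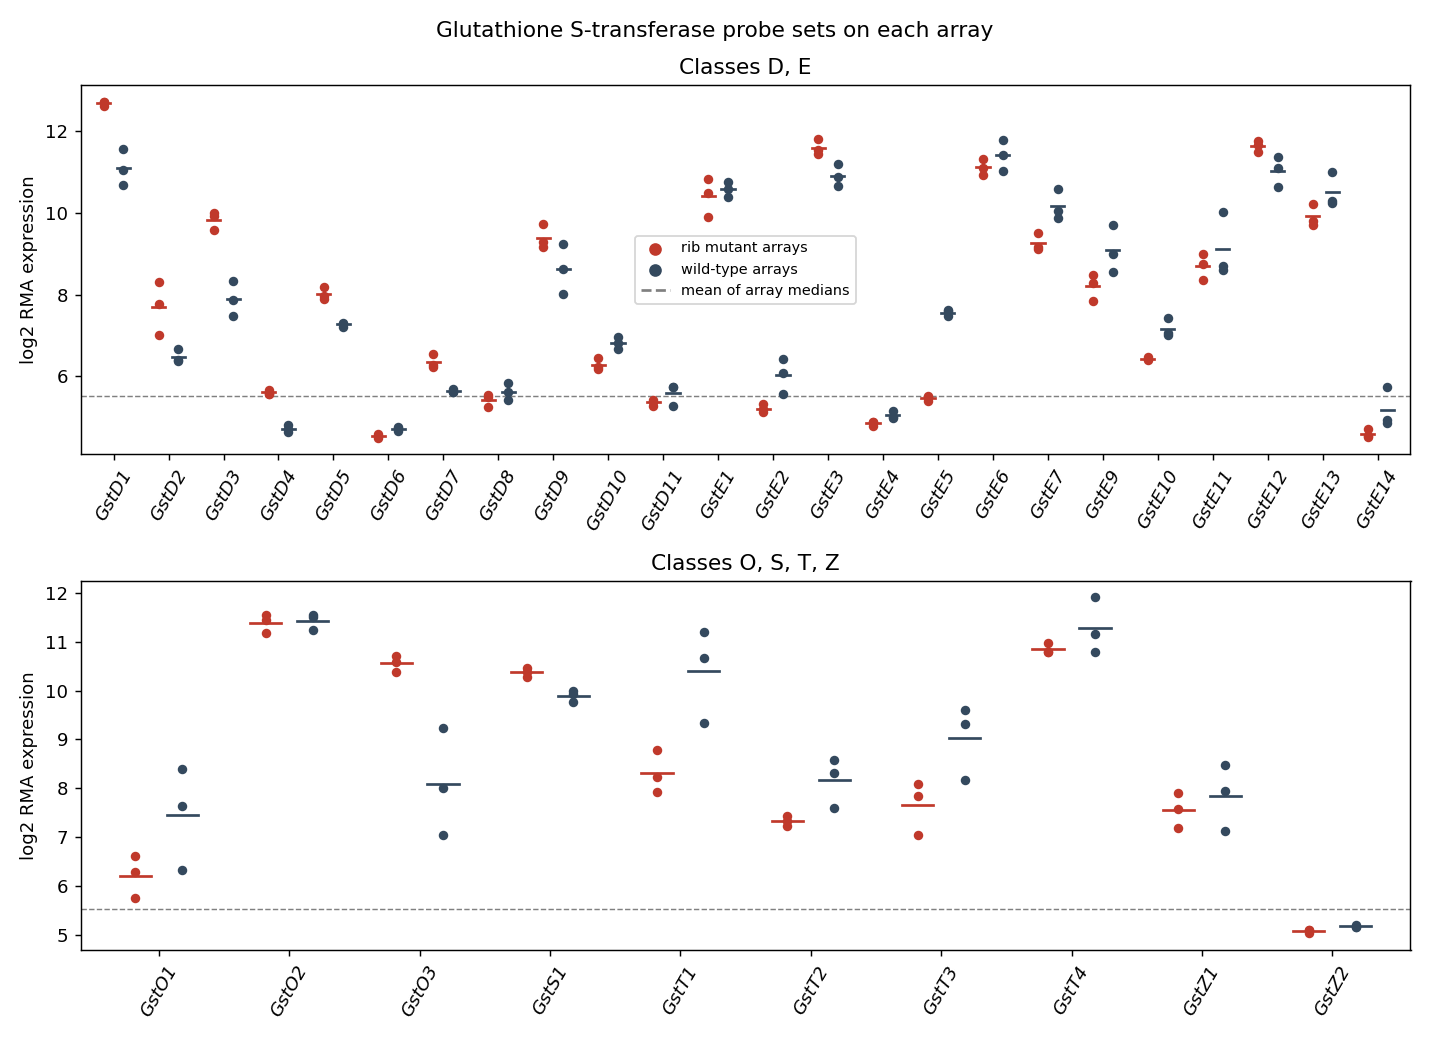
Log2 RMA expression (vertical axis) of the 34 GST genes (horizontal axis) on each array, with rib mutant arrays in red left of wild-type arrays in dark blue, bars at the group means and a dashed line at the mean of the array medians. All mutant points of GstD1, GstD3, GstD4, GstD5 and GstD7 lie above the wild-type points, while those of GstE5, GstE7 and GstE10 lie below them.

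The delta genes sit in 1 run of 11 on chromosome arm 3R, in the order GstD10, GstD9, GstD1, GstD2, GstD3, GstD4, GstD5, GstD6, GstD7, GstD8 and GstD11 in the RefSeq gene table. GstD1, whose enzyme removes hydrogen chloride from DDT and whose promoter is a common reporter of oxidative stress, read 12.72, 12.61 and 12.71 in the mutants and 11.57, 11.05 and 10.69 in wild type. Its 3 mutant arrays were nearly level, and its wild-type arrays spread over 0.88 log2 units below them. The difference was 1.58 (SE 0.22), or 2.99-fold, with limma adjusted p = 0.01. GstD1 lost its call, at limma adjusted p = 0.055, 0.0504 and 0.0541, when mutant replicate 1, 2 or 3 was left out.

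GstD3 had the largest rise of the delta genes. It read 9.999, 9.59 and 9.93 in the mutants and 8.34, 7.87 and 7.47 in wild type, with more than 1 log2 unit between the groups. The difference was 1.95 (SE 0.24), or 3.85-fold, with limma adjusted p = 0.0065, and only 0.938% of all probe sets had a larger positive difference. GstD3 passed in every fit that left out 1 array.

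GstD4, GstD5 and GstD7 rose by less, and their arrays were closely alike within each group. GstD4 read 5.57, 5.57 and 5.68 in the mutants and 4.63, 4.80 and 4.71 in wild type, a difference of 0.89 (SE 0.08, limma adjusted p = 0.00228). The wild-type arrays lay below the array median, in a range close to background, where RMA compresses differences. GstD5 read 7.90, 7.98 and 8.19 in the mutants and 7.32, 7.21 and 7.29 in wild type, a difference of 0.75 (SE 0.10, limma adjusted p = 0.00879). GstD7 read 6.23, 6.28 and 6.54 in the mutants and 5.61, 5.70 and 5.62 in wild type, a difference of 0.71 (SE 0.11, limma adjusted p = 0.0129). GstD4 and GstD5 passed in every fit that left out 1 array, and GstD7 missed the threshold without mutant replicate 2 (limma adjusted p = 0.0546).

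GstD2 lies between GstD1 and GstD3 and also separated the groups, but it did not pass the test. It read 7.02, 7.77 and 8.32 in the mutants and 6.40, 6.66 and 6.38 in wild type, and here the mutants spread the more widely. The difference was 1.22 (SE 0.32) with limma adjusted p = 0.0706, and with the replicate number as a block it passed at limma adjusted p = 0.0439. GstD2 also passed with a trended and robust prior (0.0396), with arrays scaled on hybridization controls (0.0235) and without mutant replicate 1 (0.0263). GstD9 read 9.28, 9.16 and 9.74 in the mutants and 8.02, 8.63 and 9.23 in wild type. The groups overlapped, since wild-type replicate 3 lay above mutant replicate 2, and the difference was 0.77 (95% interval −0.01 to 1.55, limma adjusted p = 0.202). GstD9 passed with arrays scaled on hybridization controls (difference 1.15, limma adjusted p = 0.0262), and its difference was 0.46 without wild-type replicate 1.

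The other 4 delta genes read lower in the mutants, and 1 of them, GstD10, passed the test, while the differences of GstD6, GstD8 and GstD11 changed sign when arrays were scaled on hybridization controls. GstD10, at the end of the run beside GstD9, read 6.45, 6.22 and 6.17 in the mutants and 6.67, 6.97 and 6.81 in wild type. It fell by 0.53 (SE 0.12, limma adjusted p = 0.045), a call that ended with the replicate block (limma adjusted p = 0.0611), with a trended and robust prior (0.0762), with median centring (0.0601), with arrays scaled on hybridization controls (0.414) and in all but 1 of the 6 leave-one-out fits (up to 0.175). GstD6, which lies between GstD5 and GstD7, read 4.53, 4.50 and 4.59 in the mutants and 4.66, 4.77 and 4.73 in wild type. Every one of these GstD6 values was below the array median, and the difference of −0.18 (95% interval −0.36 to −0.004) had limma adjusted p = 0.189. GstD8 and GstD11, the last genes of the run, differed by −0.20 and −0.22 with overlapping groups (limma adjusted p = 0.386 and 0.372).

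The run on 3R thus held a stretch from GstD9 to GstD5 in which all 6 GST genes were higher in the mutants, with 4 passing the test, followed by genes of both signs. Probe sequences were not used here, so signal shared between close delta paralogues was not tested. The wild-type order of GstD1 and GstD3, with replicate 1 highest and replicate 3 lowest, was not that of GstD4, GstD5 or GstD7. GstD4, GstD5 and GstD7 had wild-type ranges of 0.172, 0.109 and 0.089 log2 units.

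**Figure D2:**
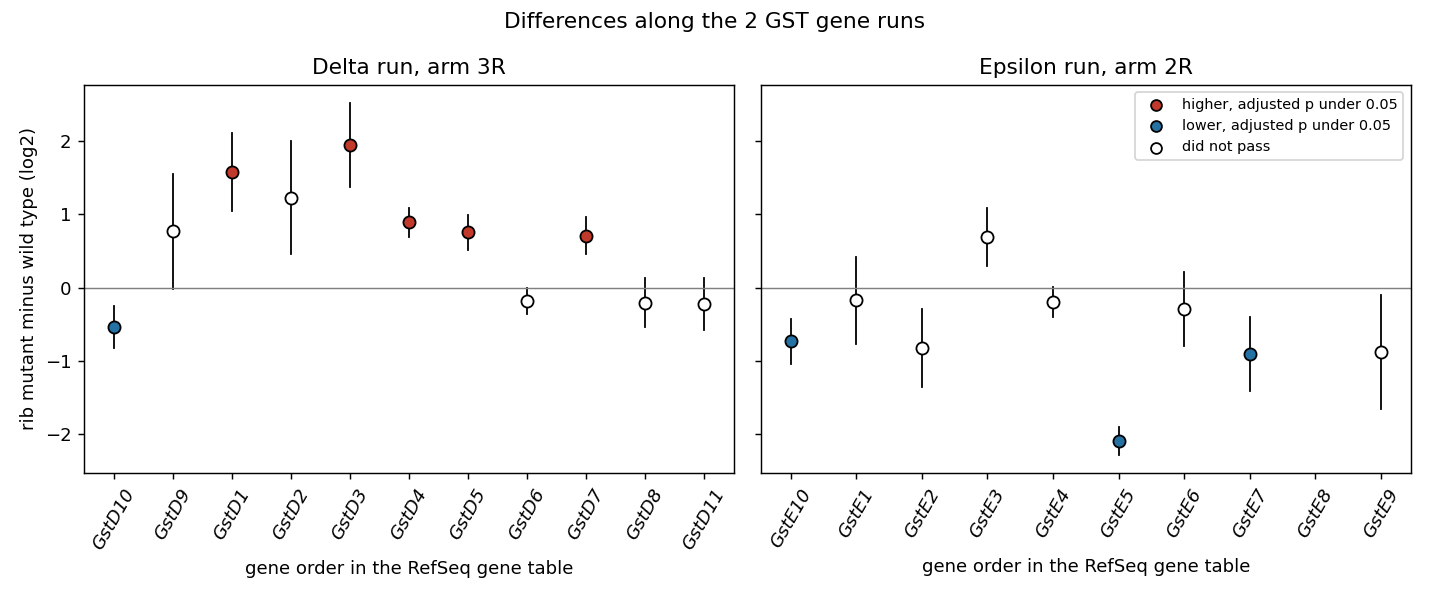
Difference of rib mutant minus wild type in log2 units, with 95% limma intervals, for the GST genes of the 3R run (left) and the 2R run (right), placed in gene order. Rises (red) lie in the stretch from GstD1 to GstD7, while the calls of the 2R run (blue) are falls at GstE10, GstE5 and GstE7, and GstE8 has no value.

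Of the 13 epsilon genes, 9 lie in a run on arm 2R that the gene table orders as GstE10, GstE1, GstE2, GstE3, GstE4, GstE5, GstE6, GstE7, GstE8 and GstE9. The fall of GstE5 was the clearest in the family. It read 5.49, 5.41 and 5.51 in the mutants and 7.62, 7.47 and 7.60 in wild type, so that the arrays of each group agreed within about 0.15 log2 units and the groups stood far apart. The difference was −2.09 (SE 0.08), or 4.26-fold lower, with limma adjusted p = 0.000121, and it passed in every alternative setting. The mutant arrays lay below the array median, so the size of this fall may be understated. Whether the strains differ in sequence under this probe set was not tested.

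GstE7 and GstE10 also fell. GstE7 read 9.12, 9.16 and 9.51 in the mutants and 9.88, 10.05 and 10.58 in wild type, a difference of −0.91 (SE 0.21, limma adjusted p = 0.0492). GstE10 read 6.44, 6.41 and 6.47 in the mutants and 7.44, 7.02 and 7.06 in wild type, a difference of −0.73 (SE 0.13, limma adjusted p = 0.0222). GstE7 missed the threshold in 4 of the 6 leave-one-out fits, without any 1 of the mutant arrays or without wild-type replicate 2 (limma adjusted p up to 0.18). GstE10 missed it without any 1 of the mutant arrays (up to 0.102) and with arrays scaled on hybridization controls (0.186).

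The 2 probe sets of GstE9 both read lower in the mutants, but only the dimmer passed. The brighter probe set read 8.27, 7.85 and 8.49 in the mutants and 8.55, 8.99 and 9.72 in wild type, where the groups did not overlap but mutant replicate 3 and wild-type replicate 1 nearly met. Its difference was −0.88 (SE 0.32, limma adjusted p = 0.154). The dimmer probe set read 4.86, 4.91 and 4.97 in the mutants, below the array median, and 6.16, 6.40 and 6.95 in wild type. It fell by 1.59 (SE 0.20, limma adjusted p = 0.00726). Averaged over both probe sets GstE9 fell by 1.24 (limma adjusted p = 0.0353). The brighter probe set passed without wild-type replicate 1 (0.0397).

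GstE2 and GstE3, next to each other in the run, differed in opposite directions without passing. GstE2 read 5.20, 5.12 and 5.32 in the mutants, below the array median, and 6.44, 6.09 and 5.58 in wild type, a difference of −0.82 (SE 0.22, limma adjusted p = 0.0725). GstE3 read 11.45, 11.54 and 11.80 in the mutants and 11.19, 10.87 and 10.66 in wild type, a difference of 0.69 (SE 0.16, limma adjusted p = 0.0561). Neither pair of groups overlapped. GstE3 passed without the dimmest 40% of probe sets (limma adjusted p = 0.0493), with arrays scaled on hybridization controls (0.0337) and with a trended and robust prior (0.0399), and GstE2 with the last of these (0.0364). GstE3 also passed without wild-type replicate 1 (0.013) and GstE2 without wild-type replicate 3 (0.0125).

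The other genes of the 2R run did not pass. GstE4 read 4.80, 4.87 and 4.89 in the mutants and 4.99, 4.99 and 5.16 in wild type, all below the array median, and differed by −0.20 (limma adjusted p = 0.207). GstE1 and GstE6 differed by −0.17 and −0.29 with overlapping groups (limma adjusted p = 0.671 and 0.407), and the 95% intervals were −0.77 to 0.42 for GstE1 and −0.80 to 0.21 for GstE6. The signs of GstE1, GstE4 and GstE6 turned when arrays were scaled on hybridization controls. The steep difference at GstE5 thus lay between a neighbour at −0.20 and a neighbour at −0.29.

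The epsilon genes outside the run lie elsewhere on 2R. GstE12 read 11.75, 11.49 and 11.65 in the mutants and 11.37, 11.10 and 10.63 in wild type, a difference of 0.60 (SE 0.20, limma adjusted p = 0.123, 0.0293 without wild-type replicate 1). GstE13 read 9.72, 9.81 and 10.22 in the mutants and 10.25, 10.28 and 11.01 in wild type, where replicate 3 was the highest of both groups. Its difference of −0.60 (SE 0.24) missed the threshold (limma adjusted p = 0.191) and passed with the replicate block (0.026). GstE14, known as noppera-bo and needed for ecdysteroid synthesis in the prothoracic gland, read 4.72, 4.55 and 4.52 in the mutants and 4.85, 4.94 and 5.73 in wild type. Only wild-type replicate 3 stood above the array median, and the difference of −0.57 had limma adjusted p = 0.201. GstE11 ranged from 8.35 to 8.99 in the mutants and from 8.61 to 10.03 in wild type, with a difference of −0.42 (limma adjusted p = 0.534) that turned to 0.04 without wild-type replicate 1.

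The 3 omega genes lie together on arm 3L, with se, another omega gene, between GstO3 and GstO2, and each behaved differently. Omega enzymes have a cysteine in the active site, and the product of se makes an intermediate of the red eye pigments. GstO3 read 10.72, 10.38 and 10.59 in the mutants and 9.24, 8.01 and 7.05 in wild type. The mutant arrays lay within 0.34 log2 units of each other, while wild type spread over 2.19 log2 units. GstO3 rose by 2.46 (SE 0.52), or 5.52-fold, the largest difference in the family, with limma adjusted p = 0.0394. It missed the threshold without wild-type replicate 2 and without any 1 of the mutant arrays (limma adjusted p = 0.111 to 0.143).

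GstO2 did not pass. Its main probe set read 11.17, 11.45 and 11.54 in the mutants and 11.23, 11.50 and 11.54 in wild type, with a difference of −0.04 (95% interval −0.37 to 0.29, limma adjusted p = 0.866) that became positive with arrays scaled on hybridization controls. The second probe set gave 0.07 (limma adjusted p = 0.788). GstO1 read 5.75, 6.28 and 6.62 in the mutants and 6.34, 7.64 and 8.40 in wild type, with overlapping groups and replicate 1 lowest in both. Its difference was −1.24 (SE 0.53, limma adjusted p = 0.208), and it passed with the replicate block (limma adjusted p = 0.0353) and without wild-type replicate 1 (0.0174). Same-numbered arrays differed by −0.59, −1.35 and −1.79. The neighbouring gene se read below the array median on every array and differed by 0.06 (limma adjusted p = 0.702). With arrays scaled on hybridization controls se passed (difference 0.44, limma adjusted p = 0.0374).

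All 4 theta genes read lower in the mutants. None passed the limma test as fitted for the other genes, and GstT1, GstT2 and GstT3 passed under some alternatives. GstT1 and GstT2 are neighbours on arm 2R. GstT1 read 7.93, 8.23 and 8.78 in the mutants and 9.33, 10.67 and 11.20 in wild type, 2 groups that did not overlap but each spread widely. The difference was −2.09 (SE 0.50), or 4.26-fold lower, with limma adjusted p = 0.0551 and 0.0112 with the replicate block. GstT1 also passed with a trended and robust prior (0.0369), with arrays scaled on hybridization controls (0.0384) and without the dimmest 40% of probe sets (0.04). It was as large a fitted difference as that of GstE5, with a larger SE.

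GstT2 read 7.23, 7.33 and 7.44 in the mutants and 7.59, 8.31 and 8.58 in wild type, a difference of −0.83 (SE 0.25, limma adjusted p = 0.103, 0.0416 with the replicate block). GstT3, on the X chromosome, read 7.04, 7.84 and 8.09 in the mutants and 8.17, 9.32 and 9.61 in wild type, a difference of −1.38 (SE 0.44, limma adjusted p = 0.115, 0.00523 with the replicate block). In GstT1, GstT2 and GstT3 replicate 1 was lowest and replicate 3 highest in both groups, so same-numbered arrays differed more evenly than the group spread shows. Without wild-type replicate 1 the limma adjusted p was 0.00357 for GstT1, 0.00355 for GstT2 and 0.0159 for GstT3. Within pairs of the same number GstT3 differed by −1.14, −1.49 and −1.51. GstT1 differed by −1.40, −2.44 and −2.42 and GstT2 by −0.37, −0.97 and −1.145, so their pairs were less even. GstT4, also on the X, ranged from 10.79 to 10.97 in the mutants and from 10.79 to 11.91 in wild type, and its difference of −0.44 had limma adjusted p = 0.361.

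**Figure D3:**
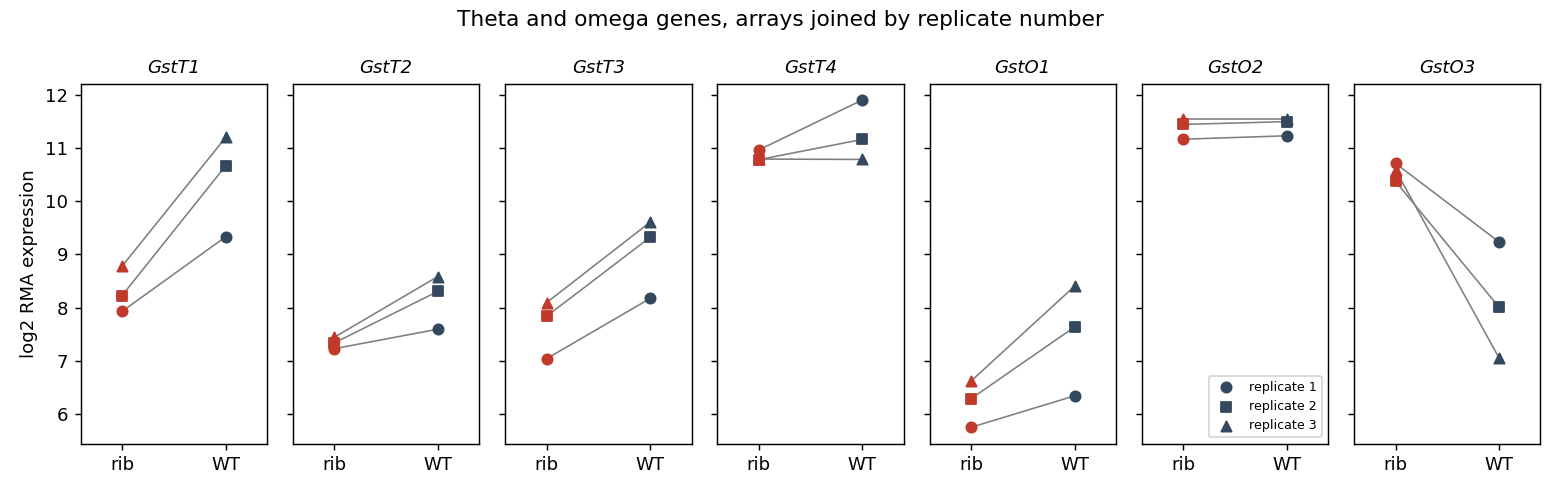
Log2 RMA expression (vertical axis) of the 4 theta and 3 omega genes on the rib mutant arrays (red, left) and wild-type arrays (dark blue, right), with lines joining arrays of the same replicate number. The lines of GstT1, GstT2, GstT3 and GstO1 keep their order between groups, with replicate 1 lowest, while GstO2 is flat and GstO3 is higher in every mutant array.

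The same replicate number was lowest and highest in both groups for 11 of the 34 GST genes (32.4%), beside 29.2% of all probe sets. These were GstE1, GstE4, GstE7, GstE13, GstO1, GstO2, GstT1, GstT2, GstT3, GstZ1 and GstZ2, with no delta gene among them. With the replicate block 8 GST genes rose and 8 fell, while the count over all probe sets grew to 2745, or 14.6%. The block added GstD2 to the rises and GstE13, GstO1, GstT1, GstT2 and GstT3 to the falls, and it took away GstD10.

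GstS1 is the only sigma gene of the fly, and its enzyme, abundant in flight muscle, clears the lipid oxidation product 4-hydroxynonenal. It read 10.28, 10.37 and 10.47 in the mutants and 9.93, 9.98 and 9.77 in wild type, and both groups were tight. It rose by 0.48 (SE 0.10), or 1.39-fold, with limma adjusted p = 0.033, which lies under the 1.5-fold limit of the submitters' own rule. The call was lost with a trended and robust prior (limma adjusted p = 0.0857) and in 4 of the 6 leave-one-out fits, without wild-type replicate 2 or any 1 of the mutant arrays (0.0709 to 0.14).

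The 2 zeta genes, neighbours on 3R, showed no called difference. Zeta enzymes turn maleylacetoacetate into fumarylacetoacetate in the breakdown of tyrosine. GstZ1 read 7.18, 7.58 and 7.90 in the mutants and 7.13, 7.95 and 8.48 in wild type, a difference of −0.30 (95% interval −1.18 to 0.58, limma adjusted p = 0.621). GstZ2 read 5.03, 5.09 and 5.09 in the mutants and 5.16, 5.21 and 5.16 in wild type, below the array median throughout and −0.10 apart (limma adjusted p = 0.385). Both differences turned positive with arrays scaled on hybridization controls.

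Other genes of glutathione and redox metabolism were read from the same fit. Of 43 measured genes, 9 rose and 3 fell by limma's adjusted test, beside 5.54% higher and 3.32% lower among all probe sets. Their median difference was −0.01, against −0.07 over all probe sets. Cat and Trxr1 passed in all 6 leave-one-out fits. The other 10 called genes missed the threshold in 3 to 5 of them. The calls numbered 4, 5 and 2 without mutant replicates 1, 2 and 3, and 4 without wild-type replicate 2. Over all 18769 probe sets these fits called 621, 603, 607 and 891. With arrays scaled on hybridization controls, 13 of the 43 genes rose and 1 fell, beside 2917 higher and 285 lower among all probe sets. In glutathione synthesis the 2 subunits of glutamate-cysteine ligase, the rate-limiting enzyme, differed in opposite directions. Gclc, the catalytic subunit, read 8.11, 8.44 and 8.19 in the mutants and 7.62, 7.52 and 7.39 in wild type, and it rose by 0.74 (SE 0.12, limma adjusted p = 0.0165). Gclm, the modifier subunit, read 7.56, 7.14 and 7.36 in the mutants and 7.99, 8.05 and 8.13 in wild type, and it fell by 0.71 (SE 0.12, limma adjusted p = 0.0213, 0.115 with arrays scaled on hybridization controls). Neither gene's groups overlapped. Ggt-1, a gamma-glutamyl transpeptidase gene of glutathione breakdown, fell by 0.76 (SE 0.14, limma adjusted p = 0.024).

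Among 17 genes of peroxidases, reductases and thiol redox, 5 rose and none fell by limma's adjusted test, beside 5.54% higher and 3.32% lower among all probe sets. The list had no common direction, with 8 of 17 differences above zero and a median of −0.01. Cat, which encodes catalase, read 10.63, 10.69 and 10.66 in the mutants and 9.41, 9.10 and 8.996 in wild type, far apart and nearly level in the mutants. It rose by 1.49 (SE 0.12), or 2.81-fold, with limma adjusted p = 0.00148. Sod2, the mitochondrial superoxide dismutase gene, rose by 0.76 (SE 0.12, limma adjusted p = 0.0139). Trxr1, a thioredoxin reductase gene whose product also keeps glutathione reduced in flies, which lack glutathione reductase, rose by 0.78 (SE 0.11, limma adjusted p = 0.0119). MsrA, which repairs oxidised methionine, rose by 0.67 (SE 0.11, limma adjusted p = 0.0164), and the peroxiredoxin gene Prx6c rose by 0.47 (SE 0.10, limma adjusted p = 0.0398), a call that ended with the replicate block (0.0595). The thioredoxin gene Trx2 differed by 0.82 (limma adjusted p = 0.105) and the glutaredoxin gene Grx5 by −0.73 (0.0884), and both passed with the replicate block (0.0303 and 0.0321). The largest difference of the list that did not pass was that of dhd, a thioredoxin gene of the female germ line, which read 7.32, 9.22 and 8.14 in the mutants and 9.75, 9.67 and 9.75 in wild type. The groups of dhd did not overlap, and its difference of −1.495 (SE 0.45) had limma adjusted p = 0.0999.

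The regulators of the pathway did not pass. The gene cnc, the fly counterpart of Nrf2, whose CncC isoform activates GstD1 under oxidative stress, read 0.50 higher in the mutants with groups that did not overlap (95% interval −0.002 to 1.004, limma adjusted p = 0.198). The cnc difference was 0.17 with its probe sets averaged (limma adjusted p = 0.365), 0.27 without wild-type replicate 3 (0.172) and 0.88 with arrays scaled on hybridization controls (0.0719). Its inhibitor Keap1 differed by 0.08 (95% interval −0.18 to 0.35, limma adjusted p = 0.652) and its partner maf-S by −0.02 (limma adjusted p = 0.929). Which cnc isoforms the probe set detects was not examined here. None of 4 export pump genes passed limma's test after adjustment. Before it 1 had p under 0.05, beside 25.5% of all probe sets, namely Mdr49 (difference −0.86, limma adjusted p = 0.0907). Mdr49 passed without wild-type replicate 1 (0.0367) or 3 (0.0135), but not in the other leave-one-out fits (0.128 to 0.255). With arrays scaled on hybridization controls its difference was −0.48 (limma adjusted p = 0.0804).

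In the supply of NADPH, which reduces oxidised thiols, the malic enzyme gene Men read 12.02, 11.71 and 11.74 in the mutants and 10.80, 10.85 and 10.32 in wild type. It rose by 1.16 (SE 0.17, limma adjusted p = 0.0129), 1 of 2 measured genes of its list. Faa, the fumarylacetoacetase gene that follows the zeta step, read 7.25, 6.93 and 7.12 in the mutants and 9.62, 8.76 and 8.24 in wild type, and it fell by 1.77 (SE 0.34), or 3.41-fold, with limma adjusted p = 0.0293 (0.0613 with arrays scaled on hybridization controls). It was the only call among 4 genes of tyrosine breakdown, while GstZ1 and GstZ2, the genes of the step before it, differed by −0.30 and −0.10. Among 3 pteridine genes none passed, and pr, nearest to the threshold, differed by −0.33 (limma adjusted p = 0.0583). It passed without wild-type replicate 1 (0.0493) and with cyclic loess (0.0475). The limma adjusted p of pr was 0.175 with a trended and robust prior and 0.162 to 0.203 without any 1 of the mutant arrays. Its difference turned to 0.05 with arrays scaled on hybridization controls (0.739). Of 7 other genes that encode glutathione transferases or GST-fold proteins, Clic and AIMP3 rose by 0.53 (SE 0.12, limma adjusted p = 0.0422) and 0.85 (SE 0.16, limma adjusted p = 0.0268), and microsomal Mgstl differed by −0.12 (limma adjusted p = 0.756).

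**Figure D4:**
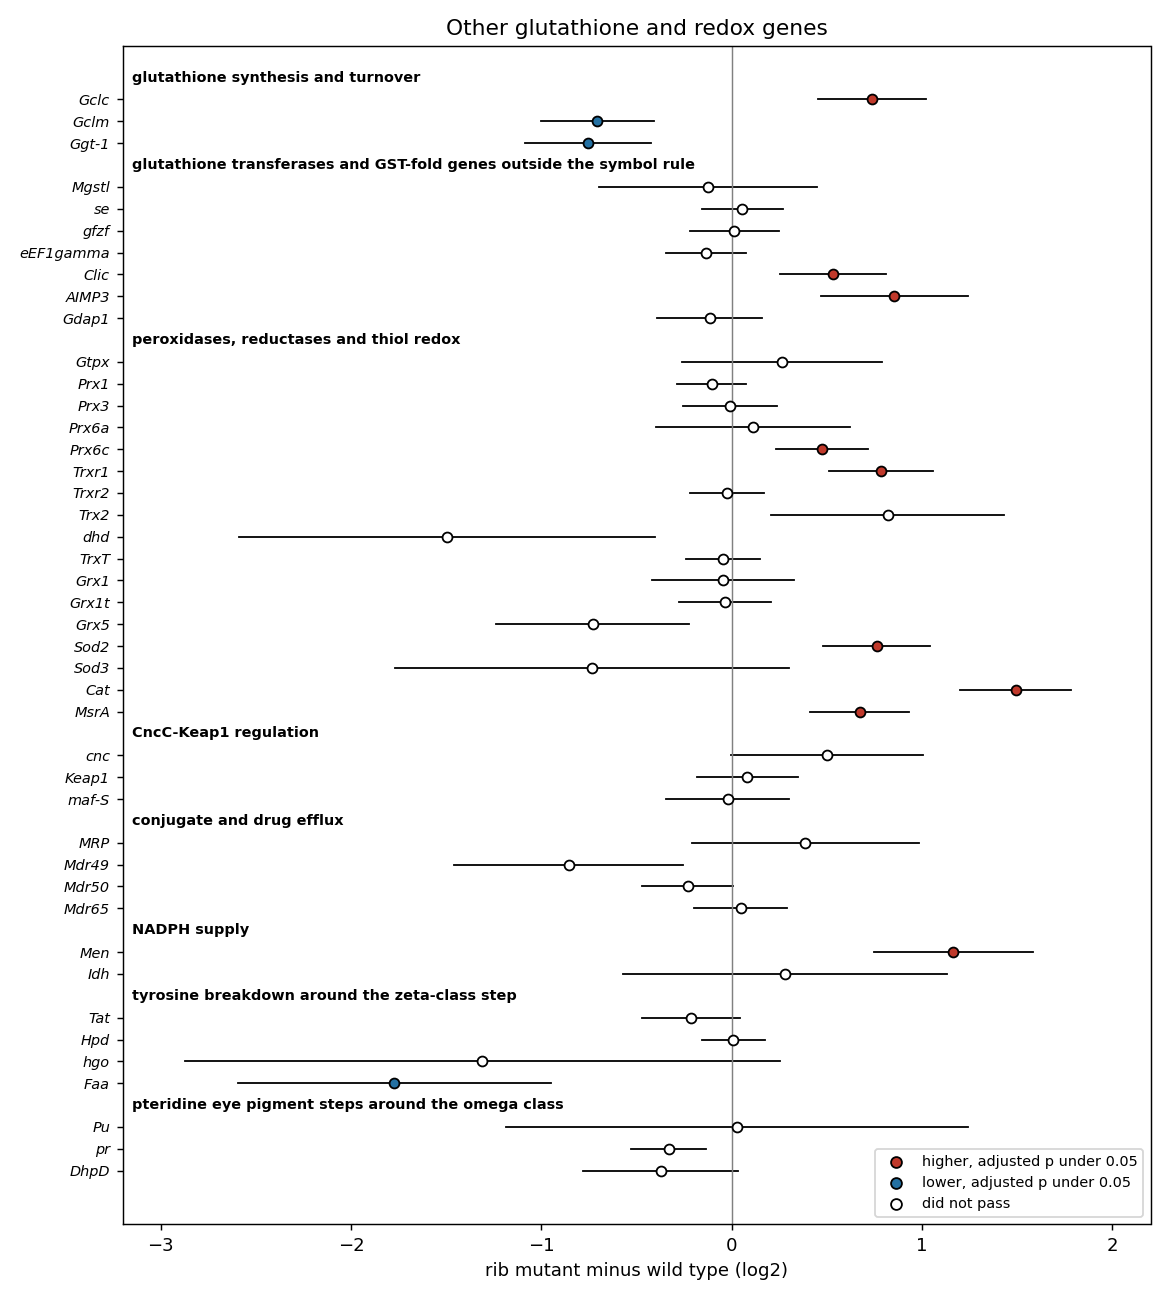
Difference of rib mutant minus wild type in log2 units (horizontal axis) with 95% limma intervals for 43 other glutathione and redox genes, grouped by list, with rises in red, falls in blue and genes that did not pass in white. Cat has the largest rise and Faa the largest fall among the called genes.

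Markers of several tissues moved with the groups and with the wild-type arrays, and their part in the GST differences was not tested. The counts of called markers given here stand beside 5.54% higher and 3.32% lower among all probe sets. The neuron list averaged 6.99, 7.22 and 6.83 in the mutants and 6.06, 5.58 and 5.20 in wild type, with 6 of 9 genes higher and none lower. The muscle list averaged 9.40, 9.50 and 9.29 in the mutants and 9.13, 7.77 and 6.75 in wild type, with 2 of 8 genes higher. Wild-type replicate 1 was highest and replicate 3 lowest for both lists, and also for the midgut, haemocyte, oenocyte and trachea lists. This order was shared by 9 GST genes, namely GstD1, GstD3, GstE2, GstE3, GstE6, GstE11, GstE12, GstO3 and GstT4. Its share over all probe sets was not counted, so it is not tied to any tissue here. The summed linear signal of the muscle list ranged from 9597 to 10015 in the mutants and from 2190 to 8178 in wild type. For neurons it ranged from 3142 to 5012 in the mutants and from 1034 to 2473 in wild type.

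Lists for tissues known for detoxification, the fat body, midgut and Malpighian tubule, held genes of both directions. The fat body list averaged 8.00, 8.08 and 7.92 in the mutants and 7.37, 7.61 and 7.08 in wild type. Of its 6 genes FASN1 (difference 2.28) and Desat1 (0.955) were higher. The others did not pass, with differences of 1.08 (apolpp), 0.005 (Fbp1), −0.16 (Fbp2) and −0.28 (Lsp2). The summed signal of the list ranged from 10524 to 15966 in the mutants and from 3053 to 10233 in wild type. Most of that sum came from apolpp, which read 13.13 to 13.81 in the mutants and 11.17 to 13.20 in wild type. The midgut list averaged 6.93, 6.80 and 6.94 in the mutants and 6.90, 6.75 and 6.63 in wild type, with 2 of 11 genes higher and 2 lower, and its summed signal ranged from 3313 to 3781 in the mutants and from 2281 to 3992 in wild type. These list averages were close although the midgut list held the 2 largest differences of any marker, in the protease genes Jon44E (−5.04, limma adjusted p = 6.35e-05) and Jon65Aiv (3.77, 6.35e-05). Another protease gene, Jon65Aiii, rose by 2.88 (limma adjusted p = 0.000114). The Malpighian tubule list averaged 6.41, 6.17 and 6.37 in the mutants and 6.29, 6.54 and 6.80 in wild type, where replicate 1 was lowest and replicate 3 highest. This order was shared by 14 GST genes, GstT1, GstT2, GstT3 and GstO1 among them. The share of all probe sets with this order was not counted, and a link to tubule content was not tested. Of the 5 measured tubule genes Oatp58Dc fell, and the summed signal of the list ranged from 869 to 1133 in the mutants and from 1279 to 1899 in wild type. RMA values have no true 0, and the markers below the array median on every array included iotaTry (midgut), Fbp2 (fat body), Oatp58Db and Lkr (tubule) and VGlut (neuron).

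The remaining lists were mixed. Of 9 haemocyte genes eater rose, with Hml, eater, NimC1 and lz below the array median on every array, and the summed signal ranged from 3581 to 4104 in the mutants and from 2415 to 4011 in wild type. None of 5 oenocyte genes passed limma's test after adjustment, and 1 had p under 0.05 before it, beside 25.5% of all probe sets. That list averaged 6.04, 6.14 and 6.03 in the mutants and 7.11, 6.16 and 5.70 in wild type, with FarO below the array median and summed signals of 717 to 810 in the mutants and 349 to 969 in wild type. The trachea list, with pio higher among 5 genes, averaged 9.23, 9.01 and 8.86 in the mutants and 9.46, 8.86 and 7.65 in wild type, and its summed signal ranged from 2816 to 3543 in the mutants and from 1145 to 5743 in wild type.

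**Figure D5:**
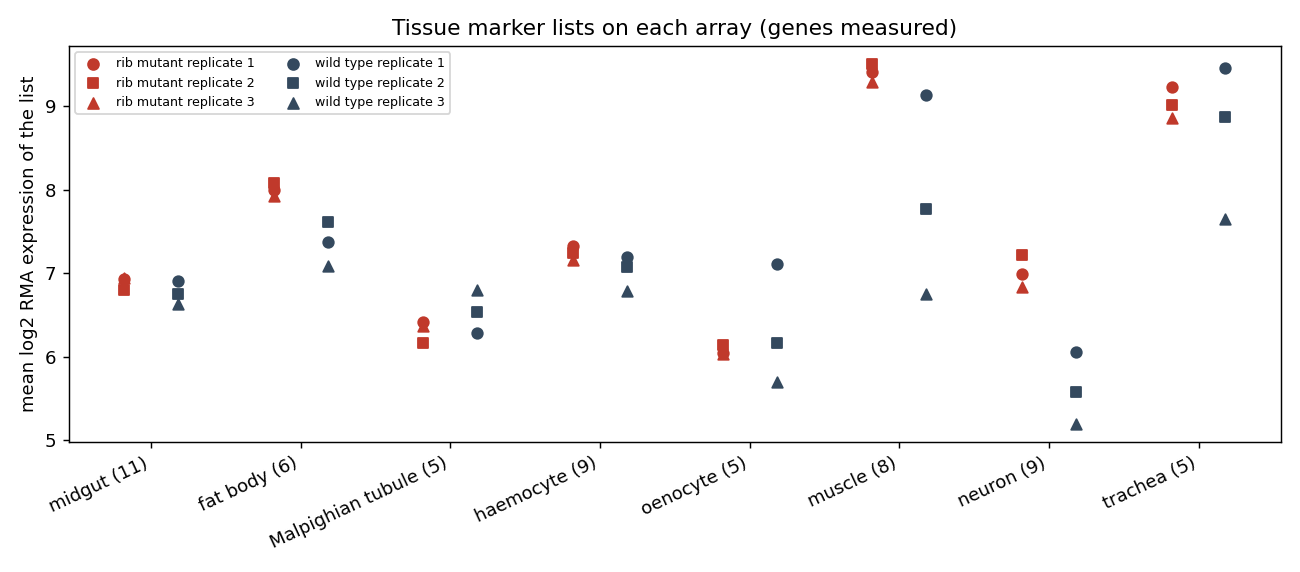
Mean log2 RMA expression (vertical axis) of 8 tissue marker lists (horizontal axis, genes measured in brackets) on each array, with rib mutant arrays in red left of wild-type arrays in dark blue and a symbol for each replicate number. The muscle, trachea, oenocyte and neuron lists spread most widely over the wild-type arrays, with wild-type replicate 3 lowest in each.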

How the data were processed

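The deposited table holds log2 expression per probe set for 6 arrays, made by the authors with RMA. Partek is the software named in the submitters' processing notes and the design text, without a version. RMA makes array distributions alike and compresses differences near background, and no detection calls were used. Depth does not apply to arrays, and 3 arrays per group limit the precision.

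Groups and replicate numbers came from the sample titles. The 183 control probe sets of 18952 were left out, and the other 18769 were fitted with limma 3.58.1 in R 4.3.3 (lmFit, eBayes, two-sided, Benjamini-Hochberg over all of them, threshold 0.05). SEs and 95% intervals are limma's moderated ones. An exact permutation test of 3 against 3 arrays cannot pass that threshold and was not used. Symbols are those of the platform annotation; neighbours and chromosome arms come from a RefSeq gene table of assembly Release 6. No promoter or protein sequences were used here, so the planned promoter motif search was not run. Named genes followed a rule: every GST gene that was called or whose groups did not overlap per array, and of each related list every called gene or the gene of smallest p, with others given beside them. The members and gene lists were chosen with earlier results of these data known.

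For pairing, each array's deviation from its group mean was correlated across groups over all probe sets. Arrays of the same replicate number gave r = 0.37, 0.57 and 0.39, and the other pairs gave −0.33 to −0.14. What a shared number stands for is not in the labels; since each same-number r was above 0.1, results that change call under the block carry its value too. The limma fit was run on simulated data with the same spread in both groups and no shared replicates. That run checks the code and not the calls given here. Alternatives were that block, a trended and robust prior, cyclic loess, median centring, scaling on 18 hybridization controls, no dim probe sets, the mean probe set of a gene, the rule of the design text, and each array left out.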

Additional observations from a re-analysis of the deposited data

How the results depend on the processing

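The family count of 11 calls was between 10 and 13 with cyclic loess, median centring, scaling on hybridization controls, a trended and robust prior, no dim probe sets and the mean probe set, and 16 with the replicate block. By the rule of the design text (1.5-fold or more, limma p under 0.05 before adjustment) there were 18 GST genes, 9 higher and 9 lower, against 2436 of all probe sets (13%). Leaving out 1 array gave 4 to 18 GST calls, namely 18 (wild-type replicate 1 out), 7 (wild-type replicate 2 out), 11 (wild-type replicate 3 out) and 6, 4 and 5 (mutant replicate 1, 2 or 3 out). The count of 12 related genes ranged from 2 to 18 when 1 array was left out, and the count over all probe sets, 1664, ranged from 603 to 3674. Over all probe sets the count was 2745 with the replicate block and 3202 with scaling on hybridization controls, of which 2917 were higher. GstD3, GstD4, GstD5 and GstE5 passed in all 14 alternatives. GstD1 did in 11, GstD7 in 13, GstE7, GstE10 and GstO3 in 10, GstS1 in 8 and GstD10 in 4. None of the 11 called GST genes changed sign in any of them. The causes of these changes were not tested. Signal near background limits GstD4, GstD6, GstD11, GstE2, GstE4, GstE5, GstE14, GstZ2 and the dimmer probe set of GstE9.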
